A study of Salmo salar with 30 samples.

Results

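The comparison described here is between Atlantic salmon (Salmo salar) juveniles of family X11 from an enriched environment, with gravel, and from an unenriched one, a bare container. Its members are the 10 samples that the labels place in family X11, of 30 in the series: 5 enriched and 5 unenriched juveniles, each on its own array. The other 20 samples are juveniles of families X22 and X35, 5 per family and environment, and serve only to show where X11 differs. X11 was a full-sib family of a wild dam and a wild sire from Little River, Newfoundland, whereas X22 and X35 had wild dams and farmed sires of the Saint John River strain. All juveniles were sampled at emergence, the end of endogenous feeding, but its time was judged on the gravel containers alone. The paper reports that enriched juveniles were heavier for their length. Whether the environments matched in stage was not tested. RNA came from the whole head severed directly behind the operculum, thus with brain, eyes, gills, skin, muscle and heart in 1 extract. Each family had 1 lidded container with upwelling water per environment, so tank and environment cannot be told apart, and full sibs of 1 tank are replicates of that tank. The p-values measure the spread between these juveniles only.

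Salmon eggs hatch in river gravel, and the alevins live in its spaces on their yolk until they emerge as fry. Hatcheries often incubate them on bare surfaces, and gravel is one way to bring structure back into rearing. At emergence the head is still growing: neurons are being added throughout the fish brain, muscle fibres and epidermis are differentiating, and the lymphoid organs are still maturing.

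Transcript abundance was measured on a 2-colour salmonid microarray of 43689 probes other than controls, with the juvenile's RNA in Cy5 and a common pool of juvenile head RNA in Cy3 on every array. A value is the log2 ratio of juvenile to common reference after normalization within the array, and a log2 fold change is the mean of the enriched minus the mean of the unenriched juveniles, so positive values were higher with gravel. Values of 21136 probes were retained. Of these, 3073 have a name, the best protein match given in the study's gene tables, and 2814 of the 3073 were named there because they differed in X11 on these same arrays. Counts over named genes are therefore descriptions of a selected set. The brightness of the arrays differed between the environments, but also along the slides. The median Cy5 signal per array was 299.5 to 450.5 in enriched and 138 to 310.5 in unenriched juveniles. An exact permutation test, two-sided, gave p = 0.0238 for it, the smallest possible being 0.00794. For the Cy3 signal of the reference an exact permutation test gave p = 0.532. Enriched juveniles 3, 4 and 5, all on slide 5, were at 424, 450.5 and 437. Enriched juveniles 1 and 2, on slides 4 and 8, were at 304 and 299.5. Both were under unenriched juvenile 4 on slide 4, at 310.5. The test does not separate slide from environment. The part of brightness in the results was not tested. Between 2 of the 30 arrays the lowest correlation over probes was -0.37, and within X11 it was 0.12, with the dyes as the labels give them. The number of arrays limits the precision.

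The first axis of variation among the 10 X11 heads separated the environments. The first principal component held 35.1% of the variance over the 20140 probes measured on all 10 arrays, and all enriched juveniles lay on one side of it, at 12.6, 45.1, 32.9, 35.6 and 30.8, against -47.7, -46.5, -35.8, -18.3 and -8.6 in the unenriched juveniles (exact permutation test, two-sided, p = 0.00794, the smallest possible). The second component, with 11% of the variance, did not separate the environments (exact permutation test, p = 0.929). Enriched juveniles resembled each other more than unenriched ones did: the correlation between 2 arrays over probes had a median of 0.61 among enriched, 0.46 among unenriched and 0.30 between an enriched and an unenriched juvenile. Enriched juvenile 1 and unenriched juvenile 5 were closest to the other environment, and both lay on slide 4.

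**Figure D1:**
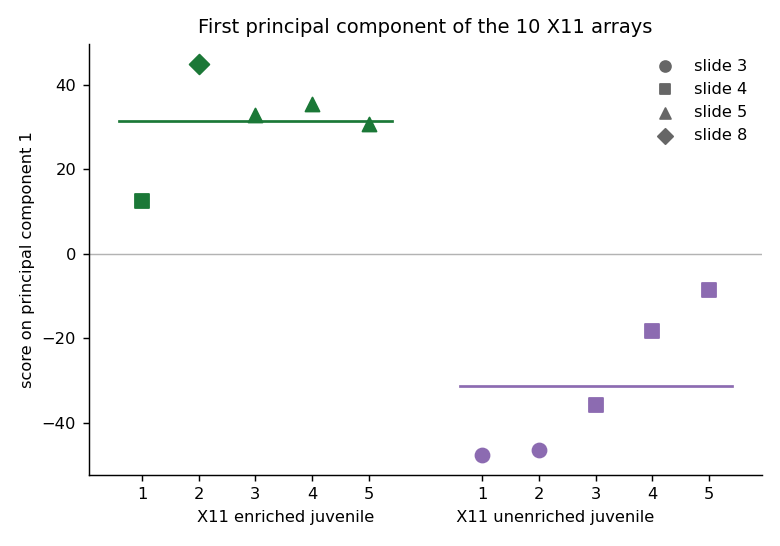
Score of each X11 juvenile on the first principal component (35.1% of variance, y axis), enriched at left and unenriched at right, with marker shape for the slide and a line at the mean of 5 juveniles. The enriched juveniles lie between 12.6 and 45.1 and the unenriched juveniles between -47.7 and -8.6, and slide 4 (squares) is the only slide with both.

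In X11, 2717 of 21136 probes (12.9%) were differentially transcribed at a false discovery rate (FDR) of 5% (limma, Benjamini-Hochberg adjustment over all probes). Of these, 1274 (6.03%) were higher and 1443 (6.83%) lower in enriched juveniles, and 6551 probes (31.0%) had an unadjusted p under 0.05. All measured enriched values lay on one side of all measured unenriched values for 2457 probes (11.6%). Among the named probes 2229 (72.5%) passed the FDR, 1164 (37.9%) higher and 1065 (34.7%) lower, the background against which each gene group below is read. Changes were moderate, with a median size of 0.76 on the log2 scale in the probes that passed, and 270 probes rose and 322 fell by more than 1. The count rests on several juveniles: it was 1316 and 1230 without unenriched juveniles 1 and 2, and 1382, 1247, 1559 and 1307 without enriched juveniles 2, 3, 4 and 5. Without the juveniles on slide 4 it fell less or rose. It was 1854, 2663 and 3043 without unenriched juveniles 3, 4 and 5, and 2835 without enriched juvenile 1.

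Slides and environments overlapped little in this family. Unenriched juveniles 1 and 2 were on slide 3 and juveniles 3, 4 and 5 on slide 4, whereas enriched juvenile 1 was on slide 4, juvenile 2 on slide 8 and juveniles 3, 4 and 5 on slide 5. With slide as a fixed block the environments are compared within slide 4 alone, and 12 probes passed the FDR. Probes not measured in enriched juvenile 1 have no comparison within slide 4. Without slide 4, the comparison of the 4 enriched with the 2 unenriched juveniles left gave 2958 of 21083 probes (14.0%). The direction of these on slide 4, which that fit had not used, was the same in 82.5% of them, against 65.3% over all probes. Their difference was smaller on slide 4, with a median size of 0.35, against 1.01 on the other slides. These probes were chosen by their size on the other slides, and over all probes the medians were 0.24 on slide 4 and 0.37 on the others. Of the 132 single genes chosen by rule, 120 passed the FDR in X11 and could be compared within slide 4, and all 120 had the same direction there, although slide 4 was part of the fit that called them. Of the 123 that passed, 99 also passed when each juvenile was left out in turn, and those described below that did not carry their highest adjusted p over these 10 fits.

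**Figure D2:**
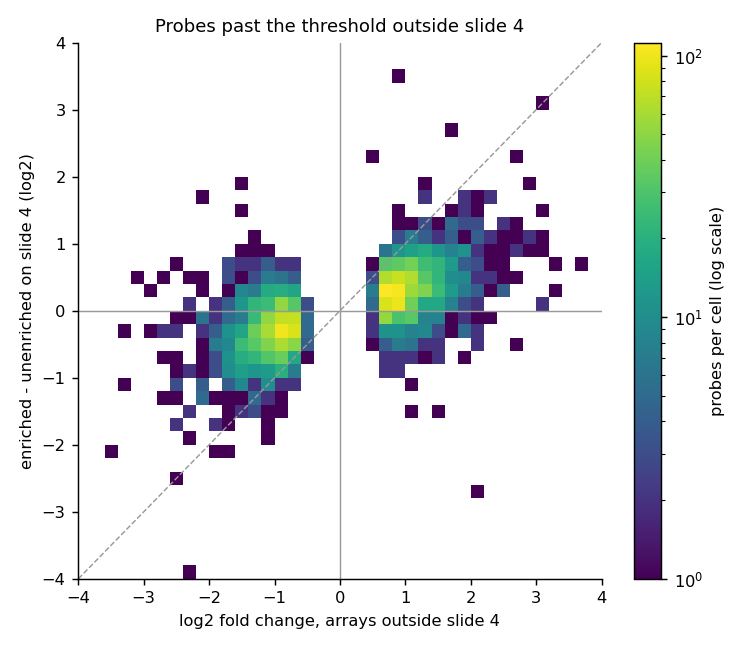
Difference on slide 4 (enriched juvenile 1 minus the mean of unenriched juveniles 3, 4 and 5, y axis) against the log2 fold change on the other slides (x axis) for probes that passed the FDR on the other slides, coloured by the number of probes per cell on a log scale. Of these probes 2914 are plotted and 5 lie beyond the axes. Most lie in the quadrants of equal sign and nearer to 0 on the y axis than the dashed line of equality.

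In 1 juvenile the ratios also moved with position on the array. A probe's identifier gives its column and row, and in the first 5 rows the median log2 ratio was 1.08 in enriched juvenile 4, whereas it was 0.02 to 0.25 in the other enriched juveniles and -0.12 to 0.10 in the unenriched juveniles. In the first 10 rows 117 of 1146 probes (10.2%) rose and 38 (3.32%) fell, against 1157 (5.79%) and 1405 (7.03%) of 19990 elsewhere. Named genes in these rows are marked as such below. Without the first 10 rows, 2645 probes passed the FDR.

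Among single genes, cytochrome p450 2m1 (C204R103), a member of a fish family of oxidizing enzymes that act on fatty acids and foreign compounds, had the lowest adjusted p of all named probes. Its log2 ratio was 0.58, 0.25, 0.80, 1.11 and 0.30 in the enriched juveniles and -2.04, -2.02, -2.17, -1.41 and -1.46 in the unenriched juveniles, with no overlap. The signal of the juvenile was under the background limit in all unenriched juveniles and in 2 of the 5 enriched ones. The difference is thus an approximate bound: it was at least 3.41-fold higher with gravel (adjusted p = 0.00108). It was 1 of 24 probes that passed the FDR in a fit of all 30 arrays with slide as a block (adjusted p = 0.00981). Its adjusted p was 0.000416 to 0.175 over the 12 other settings. It passed in 11 of them and not in the fit of the X11 arrays with slide as a fixed block (adjusted p = 0.175). The log2 fold change was 2.23 in X22 and 1.58 in X35.

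The largest rises are given for named probes with no overlap whose signal was above the limit in at least 4 of the 5 enriched juveniles. Leucine-rich glioma-inactivated protein 1 (C087R147), a secreted protein of synapses whose human mutations cause epilepsy, was at 1.60, 1.70, 1.95, 1.91 and 1.74 in enriched juveniles and 0.14, -0.93, -0.83, 0.36 and 0.29 in unenriched juveniles. It rose 3.66-fold (log2 fold change 1.97, SE 0.26, adjusted p = 0.00447). The enriched juveniles lay close together and the unenriched juveniles spread more widely, with juveniles 2 and 3 lowest. Homeobox protein dlx-1 (C169R151), a transcription factor of forebrain inhibitory neurons, was at 1.45, 1.66, 1.30, 1.02 and 1.43 with gravel and at -0.74, -0.56, -0.76, 0.25 and -0.13 without it, where its signal was under the limit in all 5 juveniles (adjusted p = 0.00447). Protein atp1b4-like (C069R141) and sodium potassium-transporting atpase subunit beta-3-like (C198R002), relatives of the subunit that brings the sodium pump to the membrane, rose 3.14-fold and 3.10-fold (adjusted p = 0.00447 and 0.00483). The second of these lies in row 2 of the array, and enriched juvenile 4 had its highest value, 2.47, against 1.62 to 1.83 in the other enriched juveniles.

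Ras-related protein rab-7a (C071R117), which directs late endosomes to lysosomes, was at least 2.96-fold higher with gravel (adjusted p = 0.00984). V-type proton atpase 21 kda proteolipid subunit-like (C034R024), part of the pump that acidifies vesicles, rose 2.81-fold (adjusted p = 0.00589), and transmembrane emp24 domain-containing protein 4 (C035R081), a cargo receptor of early secretion, 2.95-fold (adjusted p = 0.00521). Protein phosphatase 1 regulatory subunit 14b (C026R035), a phosphatase inhibitor, rose 2.87-fold (adjusted p = 0.0131). Ring finger protein 13, transmembrane protein 127, calcium-binding protein 39-like and transgelin-3, a protein of neurons, were higher in every enriched juvenile than in any unenriched one (adjusted p = 0.00742, 0.0101, 0.0182 and 0.0215, up to 0.0523 for transgelin-3), with unenriched signals under the limit.

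**Figure D3:**
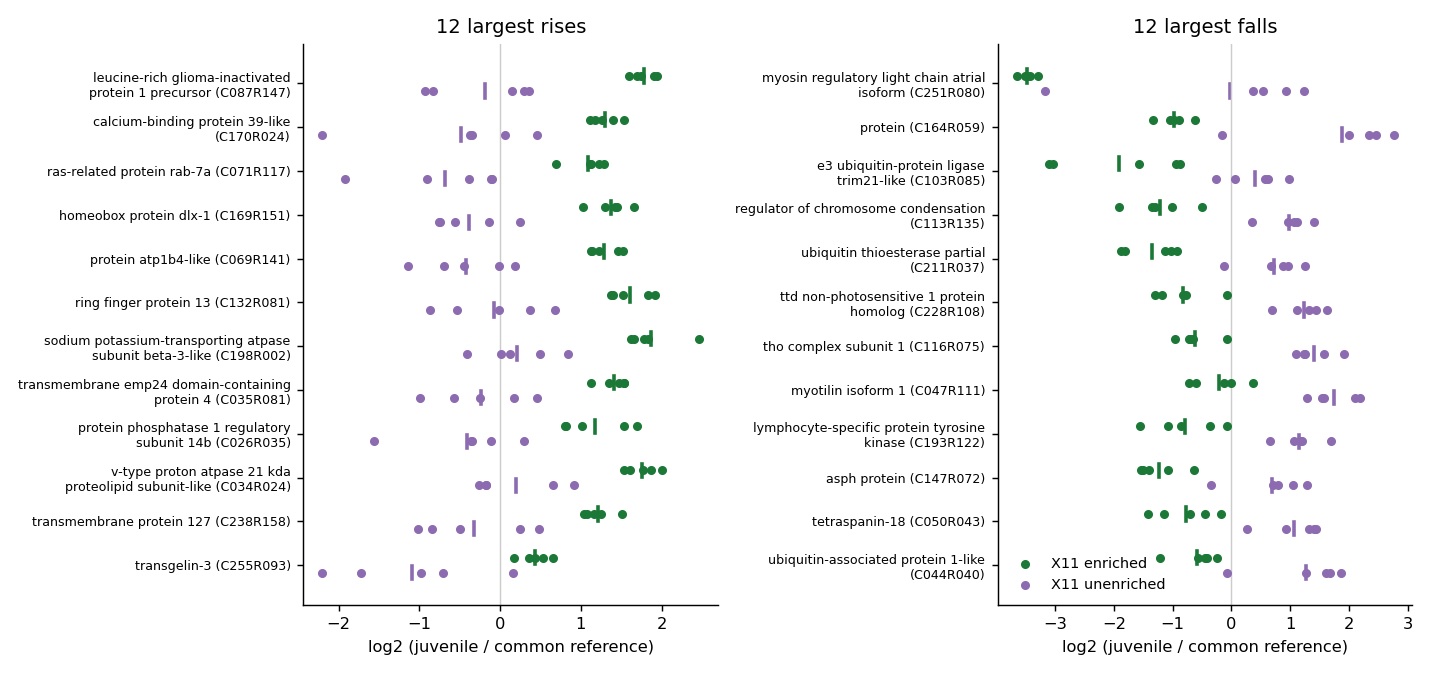
Log2 ratio of juvenile to common reference (x axis) of the 12 largest rises (left) and 12 largest falls (right) among named probes measured in all 10 juveniles with no overlap and with Cy5 above the limit on at least 4 of the 5 arrays of the higher environment, 1 point per juvenile, enriched above unenriched, with a bar at the mean of 5. In the falls, unenriched juvenile 5 is the unenriched point nearest to the enriched juveniles for all probes but tho complex subunit 1 and the lymphocyte-specific kinase. It lies farthest from the other unenriched juveniles for the atrial myosin light chain and for C164R059.

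The largest falls were led by a contractile protein of the heart. Myosin regulatory light chain atrial isoform (C251R080) was at -3.43, -3.51, -3.29, -3.66 and -3.48 in enriched juveniles and 1.24, 0.93, 0.37, 0.54 and -3.17 in unenriched juveniles. It fell in enriched juveniles, 15.7-fold on the ratio of means (log2 fold change -3.45, SE 0.66, adjusted p = 0.0123). Unenriched juvenile 5, at -3.17, was the exception within its environment, just above the highest enriched juvenile at -3.29. Without it the log2 fold change was -4.24 (adjusted p = 2.13e-06).

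Regulator of chromosome condensation (C113R135), the exchange factor of the GTPase Ran on chromatin, was between -1.91 and -0.50 in enriched juveniles and at 1.11, 1.41, 0.96, 1.06 and 0.34 in unenriched juveniles, and was at least 4.13-fold lower with gravel (adjusted p = 0.00447). Tho complex subunit 1 (C116R075), which couples transcription to mRNA export, was at -0.08, -0.95, -0.66, -0.71 and -0.73 and 1.25, 1.10, 1.24, 1.57 and 1.91 in the same order and fell with gravel, 4.11-fold, with the lowest adjusted p of the named falls (adjusted p = 0.00129). Ttd non-photosensitive 1 protein homolog (C228R108) and ubiquitin thioesterase partial (C211R037) were 4.10-fold and 4.26-fold lower (adjusted p = 0.00447 for both). Enriched signals were under the limit in 4 of 5 juveniles for the first and in 2 of 5 for the second. Asph protein (C147R072), named after aspartate beta-hydroxylase, was 3.95-fold lower (adjusted p = 0.00521). The probe C164R059, whose best match is named only as a protein, was at -0.61, -1.04, -0.89, -1.33 and -0.98 with gravel and 2.00, 2.76, 2.46, 2.33 and -0.17 without it, at least 5.95-fold lower (adjusted p = 0.00685), again with unenriched juvenile 5 nearest to the enriched ones. The 12 largest falls also hold ubiquitin-associated protein 1-like (C044R040, 3.86-fold lower, adjusted p = 0.0106), which sorts ubiquitin-marked cargo, and e3 ubiquitin-protein ligase trim21-like (C103R085, adjusted p = 0.013, enriched signals under the limit). Myotilin, a lymphocyte kinase and tetraspanin-18 complete them and are described with their groups or with the other families.

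Heart muscle was the gene group with the lowest median. Of the 14 retained probes named after heart muscle, 11 fell, none rose and 3 did not pass the FDR, with a median log2 fold change of -0.89 against -0.01 over all probes and -0.42 over all named probes. In bulk heads, fewer cells of a type and less RNA per cell cannot be told apart. Besides the regulatory chain, myosin light polypeptide 4 (C086R103), the atrial essential light chain, was at -4.67, -4.88, -4.29, -3.99 and -4.59 in enriched and 0.48, 0.98, 0.02, 0.34 and -4.30 in unenriched juveniles (adjusted p = 0.014), with all enriched signals under the limit and unenriched juvenile 5 at -4.30, among them. Without it the adjusted p was 2.13e-06. Both atrial chains thus had 4 unenriched juveniles far above the rest. Troponin slow skeletal and cardiac muscles (C252R157), part of the calcium switch of the thin filament, was at -0.49, -1.15, -0.73, -0.95 and -1.20 with gravel and 0.54, 0.81, 0.06, 0.37 and -0.28 without it, and fell 2.34-fold (adjusted p = 0.0103).

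The whole list was lower with gravel than without it in every juvenile: the median over its 14 probes was -0.77 to -0.35 in enriched juveniles and -0.14 to 0.78 in unenriched juveniles, where juvenile 5 had the lowest value. Of these probes 12 were in the study's X11 table, so this separation was in part built into the list. How much heart was left on each head is not given in the sources used here. Its part in the result was not tested. A larger list that the study drew from probes differing on these arrays under the term heart development held 63 retained probes, of which 31 fell and none rose (median -0.67). Of that list 49.2% passed the FDR, below the 72.5% of all named probes. In it, mothers against decapentaplegic homolog 1 (C160R062), a transducer of bone morphogenetic protein signals, was at -0.07, -0.52, -0.57, -0.60 and -0.17 in enriched and 1.43, 1.02, 1.36, 1.48 and 0.49 in unenriched juveniles and fell 2.97-fold (adjusted p = 0.00447). Fibroblast growth factor 1 (C098R103), a secreted growth factor, was at -1.18, -0.64, -1.11, -0.30 and -0.94 and 0.51, 0.46, 0.40, 0.59 and 0.23 in the same order (adjusted p = 0.00447), with the enriched signals under the limit.

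Skeletal muscle genes gave falls as well. Of 81 retained probes 42 fell, 2 rose and 37 did not pass the FDR, with a median of -0.70, and only 5 of the 81 had a positive log2 fold change. The share past the FDR, 54.3%, was below the 72.5% of all named probes. The 5 probes of the factors that commit cells to muscle and start their differentiation (myoblast determination protein 2, myogenic factor 5 and myogenin) all fell, with log2 fold changes between -1.47 and -0.85. Proteins of the sarcomere followed. Myotilin (C047R111), which anchors actin at the Z-disc, was at 0.37, -0.72, -0.01, -0.60 and -0.13 in enriched and 2.19, 2.09, 1.54, 1.57 and 1.29 in unenriched juveniles, at least 3.01-fold lower (adjusted p = 0.00447). A nebulin (C114R022), the ruler of the thin filament, was at 0.19, -0.79, -0.36, -0.73 and -0.60 with gravel and 0.94, 0.95, 0.97, 1.03 and 0.42 without it, and fell 2.44-fold (adjusted p = 0.00589). A myosin heavy chain (C233R135), the motor itself, was at least 2.32-fold lower (adjusted p = 0.00685).

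The fall extended to accessory proteins of muscle, though less evenly. Of 4 probes for cysteine and glycine-rich protein 3, a sensor of stretch at the Z-disc, 3 fell, and of 7 for lim-domain binding factor 3 another 3 fell. None of the 4 tropomodulin probes rose, but just 1 fell. The 2 rises were lim zinc-binding domain-containing nebulette (C180R149, 1.41-fold, adjusted p = 0.0234, up to 0.0568) and tropomyosin alpha-3 chain (C254R089, 2.13-fold, adjusted p = 0.0336, up to 0.0797), a tropomyosin also made outside muscle. Per juvenile, the median over the list was -0.65 to -0.44 in enriched and -0.14 to 0.44 in unenriched juveniles, with unenriched juvenile 5 lowest of its environment.

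Genes of neurons and synapses moved the other way. Of 76 retained probes 53 rose and 14 fell, with a median of 0.83, the highest of the 25 groups. In the study's X11 table were 73 of the 76, and over the 8 probes named in its other tables, some of them in both, the median was 0.22. All 3 probes of synaptosomal-associated protein 25, a protein of vesicle fusion, rose by 0.83 to 1.30 on the log2 scale. Of 3 probes for rab-3a, a GTPase of synaptic vesicles, 2 rose and 1 fell. All 3 probes of glutamate decarboxylase, which makes the transmitter GABA, rose by 0.80 to 0.98. Cerebellin-1-like (C138R082), an organizer of synapses, was at 0.28, 0.45, 0.35, 0.18 and 0.43 with gravel and -1.22, -0.82, -0.56, -1.20 and -1.01 without it (adjusted p = 0.00447), with unenriched signals under the limit. All 3 septin probes rose, and of 5 probes for calcium calmodulin-dependent protein kinases 4 rose and 1 fell.

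The 14 falls included structural proteins of axon and synapse. Of 4 probes for neurofilaments and alpha-internexin, the intermediate filaments of axons, 3 fell and none rose. Neurofilament heavy polypeptide-like (C075R016) was at -0.70, -1.07, -0.62, -0.97 and -0.55 in enriched and 0.73, -0.01, 0.48, 0.40 and 0.47 in unenriched juveniles, at least 1.95-fold lower (adjusted p = 0.00447). Neuroligin 3b (C228R080), an adhesion protein of the postsynaptic membrane, was at 0.18, -0.62, -0.18, -0.58 and -0.32 and 0.95, 0.61, 0.69, 0.68 and 0.61 in the same order and fell 1.99-fold (adjusted p = 0.00796). Over the whole list, the median per juvenile was 0.45 to 0.66 with gravel and -0.09 to 0.25 without it. The environments did not overlap, but 73 of the 76 probes were in the study's X11 table. Separation of these same juveniles was thus in part built into the list.

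Transcription factors of neural progenitors and of brain patterning rose nearly as a block. Of 39 retained probes 30 rose and 3 fell (median 0.82), and 38 of the 39 were in the study's X11 table. Only 3 were named in its other tables, some of them in both, with a median of 0.77. All 6 Sox probes, all 4 dlx, all 3 zic and all 3 irx probes rose, as did both probes for pax-6, a master regulator of eye and forebrain. Transcription factor sox-14 (C051R146) was at 0.50, 1.12, 0.96, 1.41 and 1.09 in enriched and -0.12, -0.54, -0.46, -0.03 and 0.08 in unenriched juveniles and rose 2.36-fold (adjusted p = 0.00589). Transcription factor sox-2 (C141R027), which maintains neural stem cells, was at 0.80, 0.50, 0.55, 0.80 and 0.68 with gravel and -0.01, -0.26, 0.05, -0.16 and -0.12 without it and rose 1.70-fold (adjusted p = 0.00749). The falls were a diencephalon mesencephalon homeobox protein 1-b-like probe, eomesodermin-like protein a-1 (C205R097, 1.51-fold lower, adjusted p = 0.028, up to 0.0679) and 1 of the 3 musashi probes (C178R061, 1.36-fold lower, adjusted p = 0.046, up to 0.0986), an RNA-binding protein of progenitors.

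Neuropeptides and the enzymes that process them did not share a direction. Of 18 probes 6 rose and 7 fell, 72.2% of the list against 72.5% of all named probes. Prodynorphin (C147R126), the precursor of opioid peptides, was at 0.74, 0.80, 0.58, 1.08 and 0.42 in enriched and -1.37, -1.13, -0.36, 0.23 and -0.44 in unenriched juveniles (adjusted p = 0.0142), with unenriched signals under the limit. Secretogranin-2 (C250R040), a protein of secretory granules, rose 1.79-fold (adjusted p = 0.0107). In contrast neuroendocrine convertase 2 (C094R045), which cuts such precursors, was at 0.81, -0.08, 0.53, 0.59 and 0.28 with gravel and 1.58, 1.41, 1.51, 1.36 and 1.10 without it and fell 1.93-fold (adjusted p = 0.0106), and the gut and brain peptide cholecystokinin (C125R025) fell 1.45-fold (adjusted p = 0.0307, up to 0.0748).

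In the group of myelin, glia and ependymin 8 of 15 probes rose and 4 fell (median 0.66). Over the 3 listed in the study's other tables the median was 0.38, but these overlap the 13 of its X11 table. Membrane protein mlc1-like (C231R106), an astrocyte protein, was higher with gravel in all juveniles (adjusted p = 0.0204), with all unenriched signals and 2 of the 5 enriched signals under the limit. Probes for ependymin, a secreted protein of fish brain fluid, mostly rose. The probe C210R115 was at 0.12, 0.46, 0.18, 0.15 and 0.23 in enriched and -0.93, -0.90, -0.40, -0.81 and 0.01 in unenriched juveniles and rose 1.73-fold (adjusted p = 0.0192), and C027R097, C175R070 and C005R058 rose too (adjusted p = 0.0436, 0.0217 and 0.0267, up to 0.0939, 0.0527 and 0.0599). In contrast C015R062 was at 0.41, 0.36, 0.25, -0.07 and 0.70 and 2.02, 1.97, 1.80, 1.79 and 0.35 in the same order and fell 2.54-fold (adjusted p = 0.0215, and 0.0527 at most, without unenriched juvenile 1 or juvenile 2). In C015R062, 4 unenriched juveniles were between 1.79 and 2.02 and juvenile 5 was among the enriched ones. The probe C152R152, named ependymin-1 at first, is counted among the falls of this list, but the study describes its contig as chimeric, so it is not read as ependymin here.

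Genes of lens, photoreceptors and pigment cells were split, with 8 of 20 probes higher and 5 lower. A share of 65.0% passed the FDR, against 72.5% of all named probes. All 4 probes for retinol dehydrogenases, enzymes of the visual cycle and of retinoic acid synthesis, rose, among them retinol dehydrogenase 12 (C199R067, 1.79-fold, adjusted p = 0.00925, 4 of 5 unenriched signals under the limit). Purpurin (C143R119), a retinol carrier of the retina, rose 1.64-fold (adjusted p = 0.0112). Beta-crystallin b3 (C238R102), a structural protein of the lens, was at 0.18, -1.43, -0.63, -0.38 and -0.61 in enriched and 1.48, 1.41, 1.61, 0.82 and 0.94 in unenriched juveniles and was lower with gravel (adjusted p = 0.00513). All enriched signals and 3 of the 5 unenriched signals were under the limit, so no fold is given. Tyrosinase (C217R115), the first enzyme of melanin synthesis, was at 0.11, -1.13, -0.34, -0.85 and -0.32 and 0.93, 0.87, 0.76, 0.31 and 0.47 in the same order and fell 2.19-fold (adjusted p = 0.0126).

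Epidermal and epithelial barrier genes rose with gravel. Of 50 retained probes 36 rose and 4 fell, with a median of 0.72. Over the 16 listed in the study's other tables the median was 0.61, but these overlap the 45 of its X11 table. The median per juvenile was 0.02 to 0.48 in enriched and -0.52 to -0.26 in unenriched juveniles. Claudins, which seal tight junctions, had 5 of 6 probes higher and none lower. Claudin-like protein zf-a89 (C035R139) was at 0.31, 1.02, 1.08, 0.60 and 0.71 with gravel and 0.07, -0.47, -0.56, -0.24 and -0.07 without it and rose 2.01-fold (adjusted p = 0.0111). Claudin-10-like (C205R145) was at 1.09, 1.89, 1.12, -0.58 and 0.96 in enriched juveniles and between -1.34 and -0.50 in unenriched juveniles (adjusted p = 0.0131), its unenriched signals under the limit and enriched juvenile 4 apart from the other enriched ones. All 3 sciellin probes and all 3 keratin probes rose, proteins that toughen the outer cells of skin.

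Enzymes that cross-link proteins of the epidermis were in the group as well. Of 3 transglutaminase probes 2 rose. In C067R138, a protein-glutamine gamma-glutamyltransferase e-like probe, the log2 ratio was -1.75, -1.69, 0.02, -1.76 and -0.32 in enriched juveniles and -3.41, -2.71, -3.98 and -2.47 in the 4 unenriched juveniles measured (adjusted p = 0.0187). Its signal was under the limit in 3 of the 5 enriched and all 4 unenriched juveniles, so no fold is given. Tumor-associated calcium signal transducer 2 (C070R056), an epithelial adhesion protein, rose 1.97-fold (adjusted p = 0.0102). The 4 falls included suprabasin (C177R053), a secreted protein of differentiating keratinocytes (adjusted p = 0.0131, signals under the limit in both environments), and a polymorphic mucin (C247R084, 1.55-fold lower, adjusted p = 0.0174).

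Extracellular matrix genes had 12 of 43 probes higher and 20 lower (median -0.58). The share past the FDR, 74.4%, was close to the 72.5% of all named probes. Fibulin-1 (C009R091), a glycoprotein of elastic fibres and basement membranes, was at 0.26, -0.01, -0.17, -0.24 and 0.20 in enriched and 1.33, 1.45, 1.08, 1.35 and 0.77 in unenriched juveniles and fell 2.29-fold (adjusted p = 0.00447). Matrilin-2 (C241R059), an adaptor of filamentous networks, fell 2.38-fold (adjusted p = 0.0108). Biglycan (C170R165), a small proteoglycan that binds collagen, rose 1.58-fold (adjusted p = 0.0161). The inhibitor of matrix proteases metalloproteinase inhibitor 2 rose in the probe C211R161 (2.79-fold, adjusted p = 0.017) and in C066R007 (2.18-fold, adjusted p = 0.00805), which lies in row 7 of the array, and not in C001R030 (adjusted p = 0.102).

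**Figure D4:**
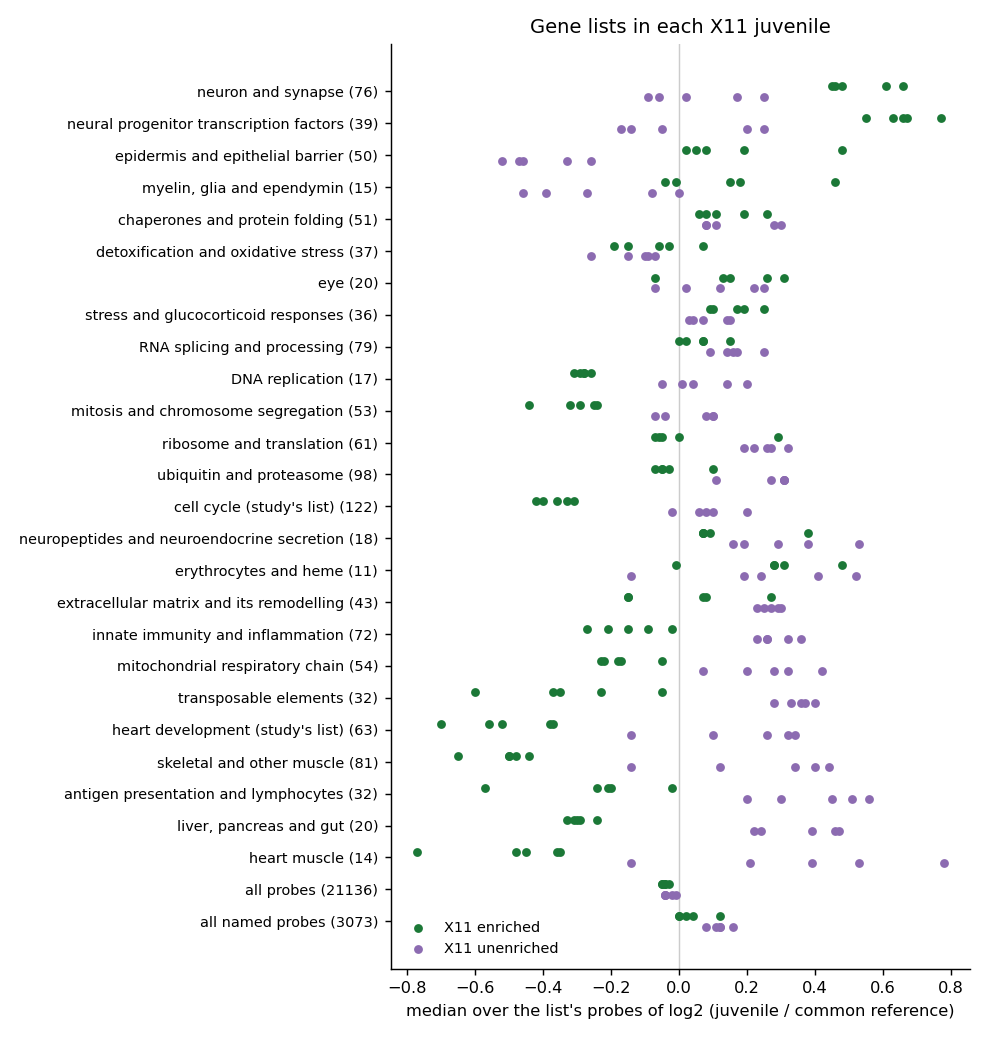
Median log2 ratio over the probes of each gene list (x axis) in each X11 juvenile, 1 point per juvenile, enriched above unenriched, with the number of retained probes in parentheses and lists ordered by their median log2 fold change. The 2 neural lists at the top and the muscle lists near the bottom have no overlap between environments, while all probes and all named probes lie close together. Most probes have a name because they differed on these arrays, so this separation is in part built into the lists.

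Genes of lymphocytes and antigen presentation were lower with gravel. Of 32 retained probes 16 fell and 2 rose (median -0.72), and the median per juvenile was -0.57 to -0.02 in enriched and 0.20 to 0.56 in unenriched juveniles. The share past the FDR, 56.2%, was below the 72.5% of all named probes. Lymphocyte-specific protein tyrosine kinase (C193R122), the kinase that starts signalling from the T cell receptor, was at -0.07, -1.56, -0.36, -1.09 and -0.86 with gravel and 1.17, 0.66, 1.20, 1.06 and 1.69 without it, at least 3.42-fold lower (adjusted p = 0.00447). Sh2 domain-containing protein 1a (C120R150), an adaptor of T and natural killer cells, was lower in every enriched juvenile (adjusted p = 0.0106), with signals under the limit in both environments. Both class II histocompatibility probes, which mark cells that present antigen to helper T cells, fell. The 2 rises were an immunoglobulin kappa chain (C250R065, adjusted p = 0.0101, unenriched signals under the limit) and beta-2-microglobulin (C070R045), the light chain of class I molecules, which rose 1.45-fold (adjusted p = 0.0277, up to 0.0678).

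Innate immune genes included more rises, 19 of 72 probes, against 31 falls (median -0.63). Of this list 69.4% passed the FDR, close to the 72.5% of all named probes. Of 9 complement probes 8 fell, with a median of -1.02. Complement c4-like (C186R121), a protein of the classical pathway, was at -0.62, -1.03, -0.74, -1.05 and -0.89 in enriched and 0.66, 1.03, 0.65, 0.61 and -0.08 in unenriched juveniles and fell 2.78-fold (adjusted p = 0.00447). The exception was complement receptor type 1-like (C211R110), at 0.90, 0.97, 0.52, 0.04 and 0.69 and -0.44, -0.63, -0.19, 0.04 and -0.62 in the same order, which rose 2.00-fold (adjusted p = 0.0142). Arachidonate 5-lipoxygenase-activating protein (C103R023), needed for leukotriene synthesis, fell 2.39-fold (adjusted p = 0.00723), and interleukin-4 receptor subunit alpha (C103R033) rose 1.71-fold (adjusted p = 0.0181). Of 10 probes of the trim family, ubiquitin ligases several of which act against viruses, 4 rose and 4 fell.

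Cell division genes gave more falls than rises with gravel. The study's list under the term cell cycle, drawn from probes that differed over the families on these arrays, held 122 retained probes, of which 53 fell and 6 rose (median -0.49). Only 9 of the 122 had a positive log2 fold change. A share of 48.4% of that list passed the FDR, below the 72.5% of all named probes. The lists of DNA replication and of mitosis, compiled by name, had 6 of 17 and 17 of 53 probes lower and 1 and 3 higher, with medians of -0.42 and -0.44, near the median of all named probes, as were their shares of falls. The median per juvenile over the cell cycle list was -0.42 to -0.31 in enriched and -0.02 to 0.20 in unenriched juveniles.

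Replication factor c subunit 3 (C132R101), part of the complex that loads the sliding clamp of DNA polymerases, gave the largest bound of this group. It was at -2.94, -1.68, -0.67 and -0.63 in enriched juveniles 2 to 5, with juvenile 1 not measured, and at 1.82, 1.95, 1.61, 1.65 and 1.75 in unenriched juveniles, at least 4.27-fold lower (adjusted p = 0.00447). It passed the FDR in each of the 11 other settings run for it, with adjusted p between 0.000321 and 0.0223. Slide as a block is among these, but without enriched juvenile 1 no slide held both environments of X11 for this probe. That fit on the X11 arrays thus compared different slides, not juveniles within slide 4. The probe's signal was under the limit in 2 of the 5 unenriched juveniles and in all enriched juveniles measured. Kinesin-like protein kif20b-like (C239R104), a motor of cytokinesis, and dna polymerase delta (C093R148) were lower in every enriched juvenile (adjusted p = 0.00936, and 0.0252, up to 0.0594), with signals under the limit in both environments. The rises included mitotic-spindle organizing protein 1 (C041R026, 1.47-fold, adjusted p = 0.0304, up to 0.0739) and the probe named thymidine cytosolic in row 3 of the array (C148R003, 1.70-fold, adjusted p = 0.0446, up to 0.0987).

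Mitochondrial respiratory chain genes had 28 of 54 probes lower and 7 higher (median -0.64). Their share past the FDR was 64.8%, against 72.5% of all named probes. Complex I, which takes electrons from NADH, had 12 of 20 probes lower and 1 higher, and its 7 probes for subunits encoded in the mitochondrial genome had 4 lower and none higher. Nadh dehydrogenase subunit 4 (C156R075) was at -0.80, -0.52, -0.22, -0.36 and -0.07 in enriched and 0.56, 0.90, 0.80, 1.60 and 1.11 in unenriched juveniles and fell 2.66-fold (adjusted p = 0.00521). Cytochrome c oxidase, the last complex of the chain, had 11 of 20 probes lower and 2 higher. The nuclear electron transfer flavoprotein-ubiquinone oxidoreductase (C038R022) was higher in every enriched juvenile (adjusted p = 0.00984), its unenriched signals under the limit.

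Genes of the ribosome and of translation had 22 of 61 probes lower and 15 higher (median -0.46). That median and the share of falls were near those of all named probes (-0.42 and 34.7%). A share of 60.7% of the list passed the FDR, below the 72.5% of all named probes. Proteins of the large subunit had 8 of 14 probes lower and none higher, and those of the small subunit 5 of 10 lower and 2 higher. 60s ribosomal protein l6 (C151R043) was at -0.32, -0.48, -0.78, -0.59 and -0.48 with gravel and 0.62, 0.44, 0.26, 0.26 and 0.17 without it and fell 1.84-fold (adjusted p = 0.00661). 40s ribosomal protein sa (C160R170), also known as the laminin receptor, rose 1.86-fold (adjusted p = 0.0111). The probe named alanyl-trna cytoplasmic (C164R063) was at least 2.08-fold higher with gravel (adjusted p = 0.0104).

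Groups of general cell maintenance were divided. Of 98 ubiquitin and proteasome probes 33 rose and 36 fell, of 79 splicing and RNA processing probes 32 rose and 29 fell, and of 51 chaperone probes 23 rose and 17 fell. The shares that passed the FDR, 70.4%, 77.2% and 78.4%, are close to the 72.5% of all named probes. The chaperone list had a median log2 fold change of 0.53, yet its median per juvenile overlapped, at 0.06 to 0.26 in enriched and 0.08 to 0.30 in unenriched juveniles. The median log2 fold change turned to -0.69 over the 16 probes in the study's other tables, which overlap the 47 of its X11 table. Within them, ubiquitin-like modifier-activating enzyme 5 (C191R075), which activates the modifier UFM1, rose 1.87-fold (adjusted p = 0.00589) and ubiquitin-like modifier-activating enzyme 1-like (C171R162) fell 2.15-fold (adjusted p = 0.00492). Tho complex subunit 5 homolog (C224R069) was lower with gravel (adjusted p = 0.00492), the second tho subunit to fall, with all enriched and 3 of the 5 unenriched signals under the limit. In contrast rna binding protein with multiple splicing 2 (C085R070) rose 2.03-fold (adjusted p = 0.00661). Hsp90 alpha (C015R121), a chaperone of kinases and steroid receptors, was at 1.35, 2.26, 1.69, 1.32 and 1.39 in enriched and 0.42, 0.46, 0.41, 0.88 and 0.41 in unenriched juveniles and rose 2.18-fold (adjusted p = 0.0101), with 4 of the 5 unenriched signals under the limit. T-complex protein 1 subunit theta (C071R019), of the chaperonin that folds actin and tubulin, was at -0.02, -0.13, -0.16, -0.03 and -0.25 and 1.54, 1.09, 1.45, 0.76 and 0.76 in the same order and fell 2.42-fold (adjusted p = 0.00447).

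Detoxification and antioxidant genes had 18 of 37 probes higher and 10 lower (median 0.41). Their share past the FDR, 75.7%, was close to the 72.5% of all named probes. Over the 9 listed in the study's other tables the median was -0.34, but these overlap the 36 of its X11 table. Of 13 probes named after glutathione, the cell's main soluble antioxidant, 10 rose and 2 fell. Hydroxyacylglutathione hydrolase (C089R062), which clears methylglyoxal adducts, rose 2.24-fold (adjusted p = 0.0143), with 4 of the 5 unenriched signals under the limit. Glutathione peroxidase 4a (C013R125), which reduces lipid peroxides, was at -0.07, -0.67, -0.76, -0.60 and -0.26 with gravel and 1.07, 0.93, 0.83, 0.66 and 0.14 without it and fell 2.30-fold (adjusted p = 0.00851). Catalase (C237R146) passed the FDR (adjusted p = 0.00447) on 1 enriched and 2 unenriched juveniles alone, all under the limit, so no difference is drawn from it. Stress and glucocorticoid genes had 16 of 36 probes higher and 14 lower, and 83.3% passed the FDR. Transcription factor jun-b-like (C073R097), an immediate early factor, rose 2.11-fold (adjusted p = 0.0143). The stress factor atf-4 (C067R162) was at -1.20, -1.16, -0.55, -1.18 and -0.77 in enriched and 0.36, 0.72, 0.18, 0.96 and -0.38 in unenriched juveniles and fell 2.62-fold (adjusted p = 0.0106), and tsc22 domain family protein 3 (C093R060), which glucocorticoids induce in mammals, fell 2.23-fold (adjusted p = 0.0113).

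Genes of other sources of RNA were looked at because a head extract holds blood and whatever lies under the cut. Erythrocyte and heme genes had 5 of 11 probes higher and 3 lower, yet their median log2 fold change was -0.53. Their share past the FDR, 72.7%, was close to the 72.5% of all named probes. The median per juvenile overlapped, at -0.01 to 0.48 in enriched and -0.14 to 0.52 in unenriched juveniles. Of the 11 probes, 2 lie in the first 10 rows of the array. An alpha-globin (C175R128) rose 2.11-fold (adjusted p = 0.0139), whereas the probe named 5-aminolevulinate mitochondrial (C066R041), after the product of the first enzyme of heme synthesis, fell 2.08-fold (adjusted p = 0.0152). Ammonium transporter rh type c 1-like (C053R002), an ammonia channel of gill and skin in fish, rose 2.47-fold (adjusted p = 0.00447) and lies in row 2 of the array. It is counted among the 5 rises, so these are not of blood alone.

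Genes named after liver, pancreas and gut, organs that lie behind the cut, had 12 of 20 probes lower and 1 higher (median -0.82). Their share past the FDR was 65.0%, against 72.5% of all named probes. Apolipoprotein a-i (C176R119), the main protein of high density lipoprotein, was at -2.69, -3.62, -2.37, -3.58 and -2.22 in enriched and -0.45, -0.60, -0.81, 0.85 and -0.76 in unenriched juveniles and was lower with gravel (adjusted p = 0.0048). All enriched signals and 4 of the 5 unenriched signals were under the limit, so no fold is given. All 3 inter-alpha-trypsin inhibitor heavy chain probes fell. The list had a median per juvenile of -0.33 to -0.24 with gravel and 0.22 to 0.47 without it. What these transcripts owe to tissue left at the cut was not tested.

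Transposable elements, the mobile DNA that makes up much of the salmonid genome, had 21 of 32 probes lower and 1 higher (median -0.64). Their share past the FDR was 68.8%, against 72.5% of all named probes. The median over the list was -0.60 to -0.05 in enriched and 0.28 to 0.40 in unenriched juveniles. A transposase (C129R069) was at -0.20, -0.34, -0.21, -0.01 and 0.05 and 0.35, 0.57, 0.79, 0.66 and 0.73 in the same order and fell 1.70-fold (adjusted p = 0.0101). The rise was a tcb1 transposase (C168R046, 1.82-fold, adjusted p = 0.0334, up to 0.0772, 4 of 5 unenriched signals under the limit), and another probe for the same element (C063R064) fell 1.90-fold (adjusted p = 0.0121).

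The same probes were compared with families X22 and X35. The probes that passed the FDR in X11 had a median size of 0.76 there and of 0.21 in X22 and in X35. Their sign was the same in 63.2% of cases in X22 and in 70.2% in X35, against 53.8% and 56.7% over all probes, although the size in X11 is that by which they were chosen. Over the cell cycle list the median log2 fold change was -0.49 for X11, -0.38 for X22 and -0.42 for X35. All 122 of its probes came from those that differed over the families together. Similar medians were thus in part built into that list. For heart muscle the medians were -0.89 in X11, against -0.41 in X22 and -0.49 in X35. Of its 14 probes 12 were in the study's X11 table and 13 in its other tables. For the neuron and synapse list they were 0.83 in X11, against 0.24 in X22 and 0.22 in X35, and nearly all of its probes were named because they differed in X11, where the 8 named in other tables had a median of 0.22. Transposable elements, at -0.64 in X11, were at 0.20 in X22 and at 0.02 in X35, but 30 of the 32 probes were in the study's X11 table. They were thus named because they differed in X11. As the lists were chosen in different ways, their medians are not compared with each other.

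**Figure D5:**
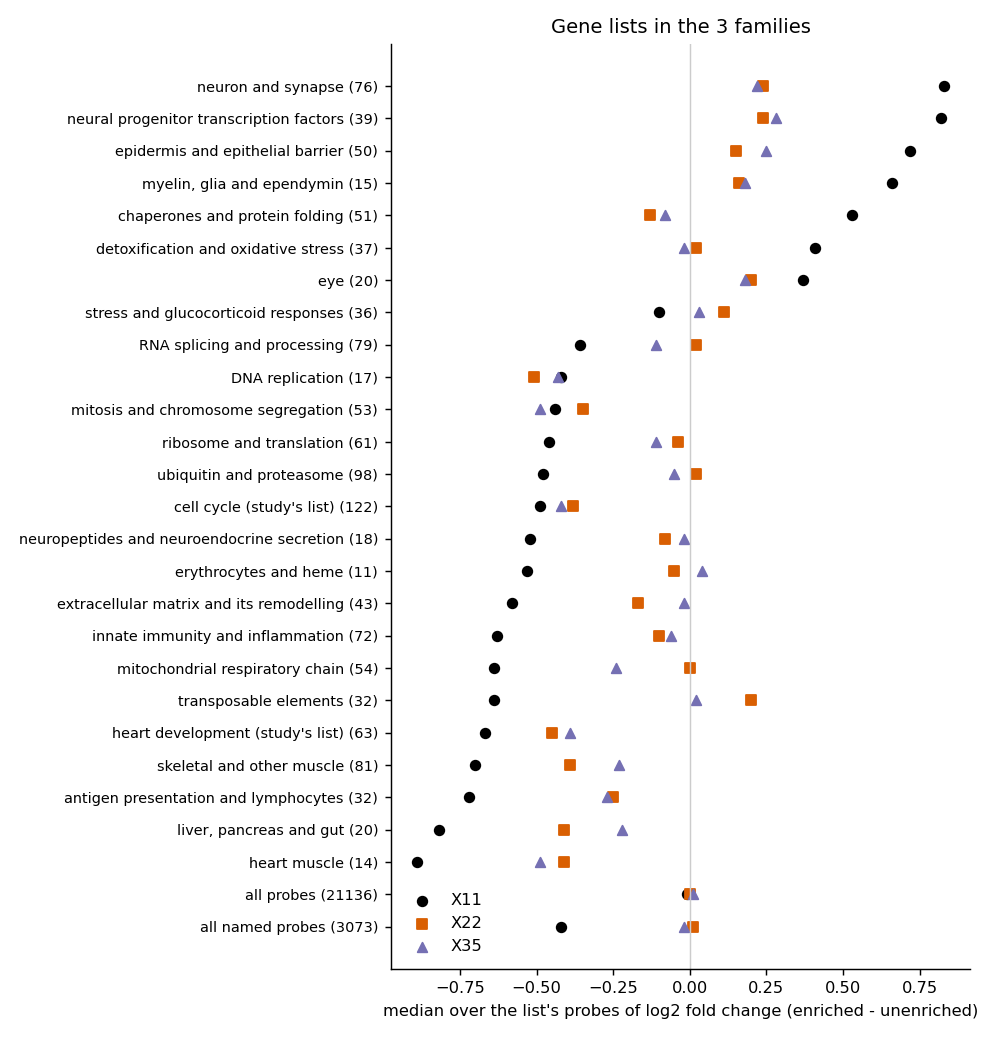
Median log2 fold change over the probes of each gene list (x axis) in X11 (circles), X22 (squares) and X35 (triangles), with lists in the order of X11 and the number of retained probes in parentheses. In X11 the medians run between -0.89 for heart muscle and 0.83 for neuron and synapse, and the cell cycle list is at -0.49, -0.38 and -0.42 in the 3 families. Most probes have a name because they differed on these arrays, in X11 or over the families together.

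The difference itself was tested as the X11 difference minus the mean of the X22 and X35 differences. It passed the FDR for 175 of 21133 probes (0.828%), of which 28 (0.132%) were more positive and 147 (0.696%) more negative in X11. The 147 had a median log2 fold change of -0.85 in X11, against 0.21 in X22 and 0.08 in X35, and 134 of them were also lower within X11 alone. Of the 28, 15 lie in the first 10 rows of the array, where X22 had a median log2 fold change of -0.44 over all probes. These include metalloproteinase inhibitor 2 (C066R007) and the ammonium transporter (C053R002). Outside these rows 157 probes passed, 13 more positive and 144 more negative. The count of probes whose X11 difference departs from the other families also rests on single juveniles. It was 398, 23, 66, 70 and 37 without enriched juveniles 1, 2, 3, 4 and 5. Without unenriched juveniles 1, 2, 3, 4 and 5 it was 24, 15, 81, 147 and 295.

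Named genes whose fall in X11 departed from the other families came from several groups. The contrast was -1.48 for mothers against decapentaplegic homolog 1 (adjusted p = 0.0259), with a log2 fold change of -1.54 in X11, against -0.06 in X22 and -0.07 in X35. Myotilin was at -1.80 (adjusted p = 0.0259), with 0.00 in X22 and -0.32 in X35. Complement c4-like was at -1.40 (adjusted p = 0.0197), arachidonate 5-lipoxygenase-activating protein at -1.09 (adjusted p = 0.0259) and neuroligin 3b at -1.10 (adjusted p = 0.0321), and all 3 had log2 fold changes in X22 and X35 nearer to 0 than in X11. Tetraspanin-18 (C050R043), a membrane protein of endothelial cells, was at -0.18, -1.41, -1.15, -0.45 and -0.70 in enriched and 1.32, 0.93, 1.45, 1.40 and 0.26 in unenriched X11 juveniles, with a contrast of -1.82 (adjusted p = 0.0469). The X11 log2 fold change of tyrosinase was -1.17, with 0.07 in X22 and 0.45 in X35 (contrast -1.44, adjusted p = 0.0384). In contrast, cytochrome p450 2m1 and the atrial myosin chain did not pass this test, with contrasts of 0.52 (adjusted p = 0.517) and -1.68 (adjusted p = 0.453).

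Probes of the same name did not always move together. Of 249 names with more than 1 probe past the FDR in X11, 38 had probes in both directions, as ependymin and tcb1 transposase did. Salmonids carry duplicate copies of many genes, and cross-hybridization between them was not tested, so values belong to the probe rather than to the named gene. A further 488 probes that passed the FDR have no name here. The spread between juveniles was a little wider without gravel: the SD of a probe within an environment had a median of 0.26 in enriched and 0.30 in unenriched juveniles. Phosphatidylinositol transfer protein beta isoform (C020R131) shows how 1 juvenile can decide a call: it was at -0.69, -1.57, -1.85, -1.54 and -0.46 in enriched juveniles and 1.40, 1.45, 1.17, 1.38 and -2.66 in unenriched juveniles, with an adjusted p of 0.11, and with an adjusted p of 0.00127 without unenriched juvenile 5.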

How the data were processed

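RNA of 30 juvenile heads was hybridized to 2-colour salmonid oligonucleotide arrays, 4 per slide, with the juvenile in Cy5 and the common pool in Cy3 and no dye swap. Per the labels and the methods, the authors scanned the arrays and deposited, for each spot, the median intensity and the median local background intensity of each channel, not normalized. The authors also deposited a table of log2 ratios, normalized within arrays and with missing values imputed, which was used here as an alternative.

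Log2 ratios were recomputed from the deposited intensities by the steps of the authors' script. Of 45220 spots 43689 were not controls. A limit per array and channel was set at the mean plus 2 SD of the local background. Background was subtracted, and ratios were normalized by loess (span 0.4, 5 iterations). Spots with Cy3 under the limit or flagged during image analysis were set to missing. Probes with at least 8 missing values over the 30 arrays were left out, with no imputation. This left 21136 probes, of which 21098 were among the authors' 21117, with a median absolute difference of 0.0166. On X11 arrays 0.73% of values were missing.

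Enriched minus unenriched was fitted per probe by limma 3.58.1 (R 4.3.3) on the 10 X11 arrays, and the departure of X11 from X22 and X35 on all 30, two-sided, with Benjamini-Hochberg adjustment over all probes and an FDR of 5%. SAM, the test of the paper's methods, was an alternative, in a version rewritten here with 100 permutations and no imputation. Folds are ratios of mean unlogged ratios. Folds are given as "at least" where Cy5 was under the limit on every array of an environment. They set the level of that environment at the higher of the measured and the lowest detected signal. No fold is given where that bound was under 1 or above the measured fold. None is given where both environments were under the limit, nor for some probes with most signals of the other environment under it. The level of the other environment can include signals under the limit, which makes such a bound approximate.

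Probe names are the study's best protein hits, which can be shared by gene copies; no genome position is given here. Gene lists were compiled from these names, and the probes and lists were chosen with earlier results of these data known. Single genes were chosen by a rule: the 12 largest rises and falls without overlap (1 probe per name, bright on at least 4 arrays of the higher environment), up to 2 rises and 2 falls of lowest adjusted p per list, probes the study names, and the 5 with the largest SD per environment, 132 in all. Exact permutation tests enumerated all splits of the 10 juveniles. Alternatives covered the source of the values, background, filters, scaling, weights, slide, pairing, the arrays in the fit and each juvenile left out. Arrays outside slide 4, the difference within slide 4, probes outside the first 10 rows and names from other tables were added after seeing the data. Python 3.11.15, pandas 2.3.3, numpy 2.4.6 and matplotlib 3.10.9 were used for tables and figures.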

Additional observations from a re-analysis of the deposited data

Results flagged for a closer look

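Of 264 groups of juveniles (the 132 single genes in each environment), 20 held a juvenile that stood apart from its group by Dixon's criterion, where chance gives about 1 in 20. Unenriched juvenile 5 stood apart for 6 of them. Its log2 ratio was -3.17 for the atrial myosin regulatory light chain (C251R080) and -4.30 for myosin light polypeptide 4 (C086R103), where the other unenriched juveniles were at 0.37 to 1.24 and 0.02 to 0.98. It was at -0.17 for C164R059 (others 2.00 to 2.76), at 0.42 for a nebulin (C114R022, others 0.94 to 1.04), at 0.35 for ependymin (C015R062, others 1.79 to 2.02) and at -2.66 for phosphatidylinositol transfer protein beta isoform (C020R131, others 1.17 to 1.45). In each of these cases it lay on the side of the enriched juveniles.

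Enriched juvenile 4 stood apart for 5 probes. It was at 2.47 for the sodium pump subunit beta-3-like probe in row 2 of the array (C198R002, others 1.62 to 1.83), at 0.82 for rna-binding protein 12b (C195R055), at -1.16 for tho complex subunit 5 homolog (C224R069), at 0.12 for sperm-associated antigen 5 (C059R123, others -0.53 to -0.36), and at 2.25 for the hypothetical protein of C051R138. The other enriched juveniles to stand apart were juvenile 5 for aurora kinase b (C203R166, -0.36) and juvenile 1 for motile sperm domain-containing protein 2 (C108R097, 3.16, others 0.19 to 0.45).

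Unenriched juvenile 1 was at 0.95 for neuroligin 3b (C228R080), at 1.91 for matrilin-2 (C241R059), at -0.17 for cd276 antigen-like (C010R015, others 0.25 to 0.31) and at 3.31 for adp-ribosylation factor-binding protein gga1-like (C016R060, others 0.27 to 1.04). Unenriched juvenile 2 was at 0.81 for a ribosomal protein of the large subunit (C131R020), and unenriched juvenile 4 at 0.88 for Hsp90 alpha (C015R121, others 0.41 to 0.46) and at 0.85 for apolipoprotein a-i (C176R119, others -0.81 to -0.45).

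The X11 difference departed from the mean of the X22 and X35 differences for 175 probes, 18 of them among the single genes chosen by rule. More negative in X11 were C164R059 (-2.86), regulator of chromosome condensation (C113R135, -1.86), myotilin (C047R111, -1.80), tetraspanin-18 (C050R043, -1.82), mothers against decapentaplegic homolog 1 (C160R062, -1.48), replication factor c subunit 3 (C132R101, -2.99), sh2 domain-containing protein 1a (C120R150, -1.75), complement c4-like (C186R121, -1.40), arachidonate 5-lipoxygenase-activating protein (C103R023, -1.09), neuroligin 3b (C228R080, -1.10), eomesodermin-like protein a-1 (C205R097, -0.92), beta-crystallin b3 (C238R102, -1.37), tyrosinase (C217R115, -1.44), ubiquitin-like modifier-activating enzyme 1-like (C171R162, -0.91) and tcb1 transposase (C063R064, -1.08). Catalase (C237R146) had a fitted value of -7.33, but its X11 signals were measured in 1 enriched and 2 unenriched juveniles and all lay under the limit, so no difference is drawn from it. More positive were metalloproteinase inhibitor 2 (C066R007, 1.06) and the ammonium transporter rh type c 1-like (C053R002, 1.66), both in the first 10 rows of the array.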

How the results depend on the processing

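The count of probes differentially transcribed in X11, 2717, was 1991 to 3439 with the authors' table, another background correction, other filters, scaling, array weights, slide as a random block, complete probes only, without slide 4 or without the first 10 rows, and 1230 to 3043 when 1 juvenile was left out. It was 1596 in a fit of all 30 arrays and 5253 with SAM. It was 12 where slide was a fixed block, which compares the environments within slide 4 only, and 24 on all 30 arrays with slide. Probes not measured in enriched juvenile 1 have no comparison within slide 4. Replicate numbers did not pair the juveniles: same-numbered ones had correlations of -0.117 to 0.019 between their deviations, and none was best matched by its own number. With the replicate number as a block 1328 probes passed.

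Probes whose X11 difference departs from the other families numbered 175, and 71 with normexp background, 323 with the limit on Cy5 as well, 795 with array weights, 9 with slide as a fixed block, 217 with a replicate block within family and 15 to 398 without 1 juvenile. Of the 132 single probes in X11, 123 passed. The Cy5 limit as well kept just 71 of the 132 in the test, and 68 of these passed. A fixed block for slide left 2, and all 30 arrays with slide left 4, against 88 to 124 otherwise. Of the 123, 24 failed without at least 1 juvenile. C132R101, not measured in enriched juvenile 1, was among those that passed with slide as a fixed block. Direction turned for beta-2-microglobulin (C070R045, -0.078) and the electron transfer flavoprotein (C038R022, -0.086) on all 30 arrays with slide, and for C124R005, in row 5 of the array, with slide as a fixed block (-0.30) and on all 30 arrays (-0.12). For C139R113, which did not pass, it was 0.045 with normexp, 0.62 on all 30 arrays with slide and -0.51 to 0.19 without 1 juvenile.

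Of 25 gene lists 18 had a negative median, as in each fit without 1 juvenile. Within slide 4 stress and glucocorticoid responses turned, leaving 17. Over the probes of the study's other tables, many of which are in its X11 table too, chaperones, detoxification and eye turned, giving 21. The cause of these changes was not tested. The 5 juveniles of 1 tank per environment set the limit of precision, and probes with a signal near background give only bounds.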

Other observations

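Among probes with the largest spread between juveniles of 1 environment, adp-ribosylation factor-binding protein gga1-like (C016R060), a sorting adaptor of the Golgi, was at 0.44, -0.45, -0.31, -0.06 and -0.18 in enriched and 3.31, 1.04, 0.89, 0.27 and 0.75 in unenriched juveniles. Probes C108R096, C108R097, C108R098 and C109R095 lie next to each other on the array and were among the 12 that passed the FDR with slide as a fixed block, whereas none of the 4 passed in the fit of the same 10 arrays without the block.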
